A study of Mus musculus with 36 samples.

Results

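Epididymal white fat (eWAT) of mice that had been returned from a high-fat to a low-fat diet was compared with eWAT of mice that had only ever been given the low-fat diet. The comparison rested on 12 of the 36 bulk RNA-seq libraries of the series, 6 from the diet-return group (HFLF) and 6 from the low-fat group (LF), chosen by their labels. All mice were wild-type C57BL/6 males of the F0 generation, weaned onto chow, put on the test diets at 6 weeks of age and killed at 24 weeks of age. The LF mice ate the low-fat diet for 18 weeks, and the HFLF mice ate the high-fat diet for 9 weeks and then the low-fat diet for 9 weeks. The remaining group (HF, 6 libraries) ate the high-fat diet for 18 weeks; it entered the shared estimate of the spread and is given as a reference. The labels do not say that each library came from a separate mouse, so the p-values measure the spread between these samples. The comparison asks whether fat tissue still differed at the RNA level after the obesogenic diet had been withdrawn.

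Epididymal fat is the large visceral depot of the male mouse. On a high-fat diet its adipocytes enlarge and die in numbers, and macrophages gather around the remains, take up lipid and switch on a lysosomal and lipid-handling programme marked by Trem2, Gpnmb and Cd9. T cells, B cells and interferon-responsive cells increase as well, while adipocyte genes for lipogenesis and mitochondrial oxidation are known to be held at a lower level. Mice that return to a low-fat diet lose fat mass within weeks.

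The libraries held 8.94 to 31.2 M counted reads (M, units of 1000000), with a mean of 18.7 M ± 7.21 in LF and 17.4 M ± 5.47 in HFLF (SD, n = 6 each). Values are counts per 1000000 counted reads (CPM) scaled by the trimmed mean of M values (TMM). The adipocyte markers of the labelled tissue were present: Adipoq was at 2113 CPM or more in all 12 libraries, and the sum over 16 adipocyte markers was 37675 to 70577 CPM in LF and 40757 to 56531 CPM in HFLF. Several libraries stood apart by markers of neighbouring tissue. The sum over 13 measured ductal epithelium markers was 877 CPM in LF library 4, 420 in LF library 5 and 219 in HFLF library 4, and 23.7 to 140 in the other 9. Sperm and germ cell markers (19 measured) summed to 850 CPM in LF library 4, 710 in HFLF library 6, 285 in LF library 5 and 270 in LF library 2, and to 49.9 to 140 in the other 8. Smooth muscle and pericyte markers summed to 7399 CPM in LF library 3 against 1695 to 2366 in the other 11. Of the epididymal epithelium list, 10 of 53 genes were in the table; Lcn5, Lcn8, Gpx5 and Adam7 were not among them, and Crisp1 was at 218 CPM in LF library 3 and at most 7.05 CPM elsewhere.

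Between HFLF and LF, 94 of 16690 genes (0.563%) passed an adjusted p of 0.05 in edgeR's quasi-likelihood test with Benjamini-Hochberg adjustment. Of these, 57 (0.342%) were higher and 37 (0.222%) were lower in HFLF. Among the called genes, 19 had a log2 fold change over 1 and 12 had one under -1, while 29 changed by less than 0.5 in either direction on that scale. The 6 HFLF and 6 LF values did not overlap for 63 of the 94 called genes, 42 of them higher and 21 lower, and for 428 of all genes (2.56%; 1.9% higher and 0.665% lower). The median log2 fold change of all genes was -0.02. The same fit called 6817 genes (40.8%) between HF and LF, which shares the LF libraries: 20.6% of all genes were higher and 20.2% lower in HF. Between HFLF and HF, which shares the HFLF libraries, it called 4242 genes (25.4%), with 10.7% higher and 14.7% lower in HFLF.

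**Figure D1:**
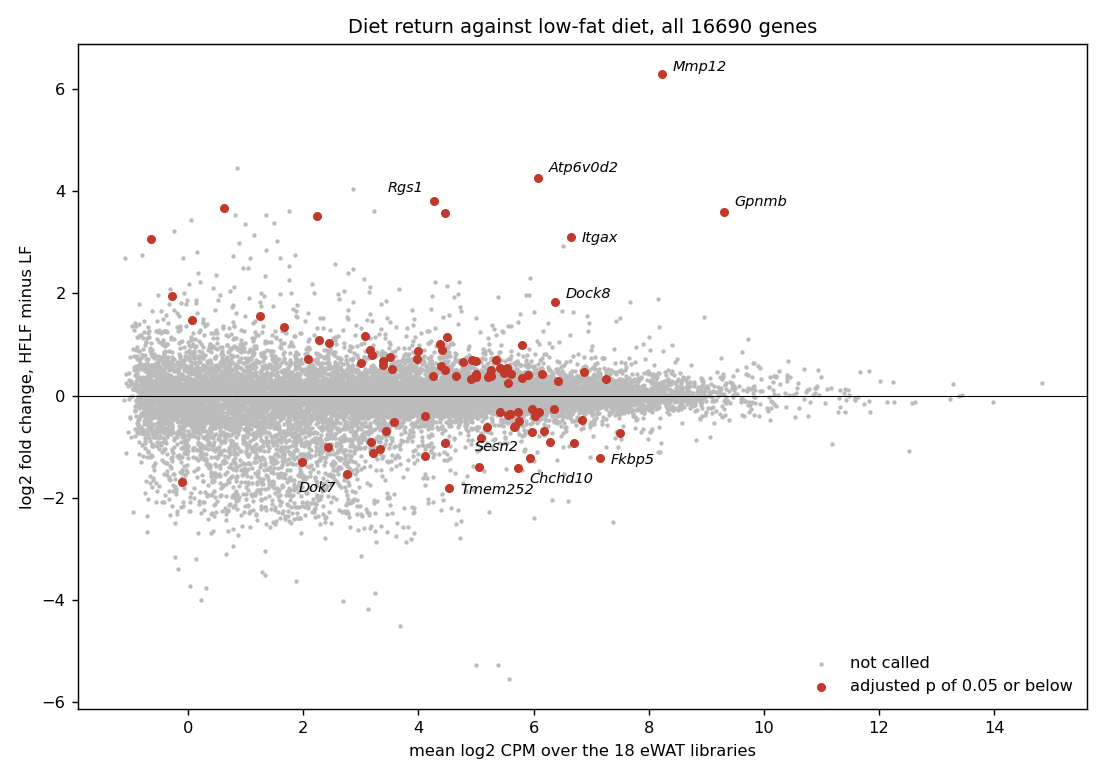
Each point is 1 of 16690 genes; the horizontal axis is the mean log2 CPM over the 18 eWAT libraries and the vertical axis the log2 fold change, HFLF minus LF, with called genes in red. The largest called rise was that of Mmp12 at 6.30, while called genes on the lower side reached -1.82 (Tmem252).

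All but 1 of the 94 calls lay close under the threshold: the lowest adjusted p in edgeR was 0.0178 (Mmp12), and 93 genes lay between 0.03 and 0.05. At an unadjusted p under 0.05 edgeR had 3028 genes (18.1%), 1498 of them higher (8.98%) and 1530 lower (9.17%). DESeq2 called 704 of 16172 genes (4.35%), 2.26% higher and 2.09% lower, and limma voom with quality weights 644 (3.86%), 1.97% higher and 1.89% lower. DESeq2 called all 94 genes of the edgeR result and limma voom called 88 of them. Single libraries decided the edgeR count. It was 0 without LF library 1, 2 or 4, although 2876, 2594 and 2623 genes then still had an unadjusted p under 0.05. It was 4 without LF library 3, and 1 without HFLF library 1, 2, 3, 5 or 6, Mmp12 in each of the 5 cases. It rose to 133 without LF library 6, 173 without HFLF library 4 and 341 without LF library 5. Leaving out 1 HF library, which changed the shared spread and could change the scaling, gave 37 to 131 calls, with 37, 56 and 38 without HF library 1, 4 and 6. No gene passed in all 12 fits that left out 1 LF or HFLF library; Mmp12 passed in 9, and no other called gene passed in more than 4. With the ductal epithelium sum as a covariate no gene passed in edgeR (lowest adjusted p 0.0517, 2826 genes at an unadjusted p under 0.05). With the 6 libraries that stood apart left out together (LF 3, 4 and 5, HFLF 4 and 6, HF 1), 6 genes passed. Of those 6 genes, 3 were among the 94, and Mmp12 did not pass.

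**Figure D2:**
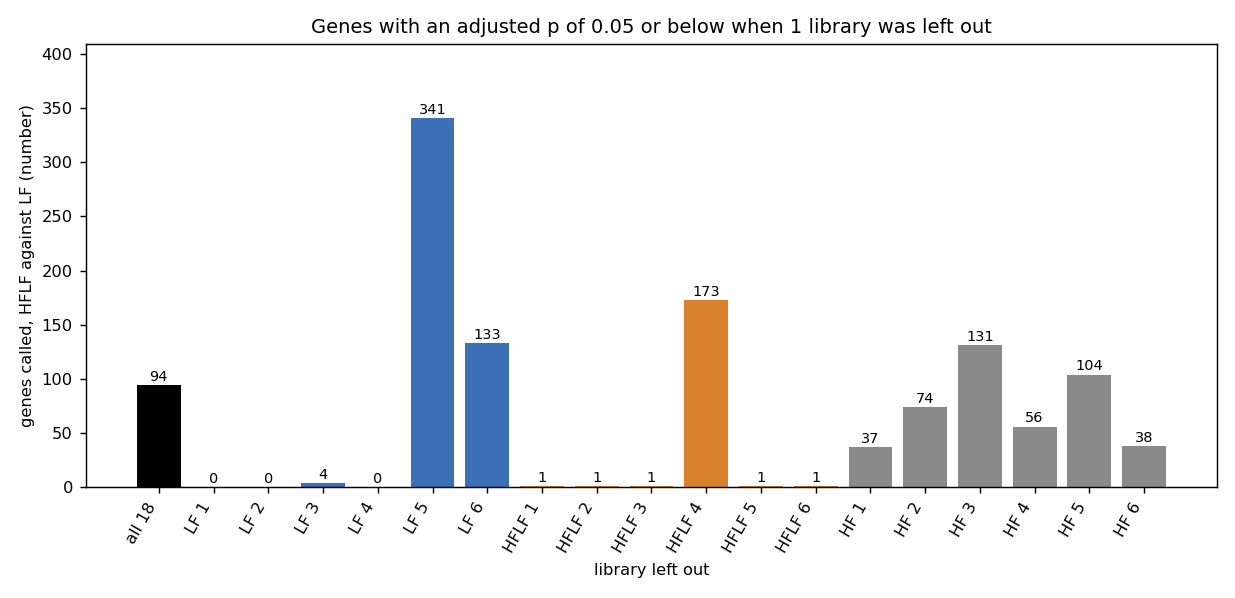
Bars give the number of genes with an adjusted p of 0.05 or below between HFLF and LF when the library named on the horizontal axis was left out; the black bar uses all 18 libraries. The bars run from 0 without LF library 1, 2 or 4 to 341 without LF library 5.

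The called genes with the 2 largest rises, Mmp12 and Atp6v0d2, are known from macrophages. Mmp12, which encodes the elastase of tissue macrophages and overlaps Mmp1b on the other strand, lay between 1.88 and 3.55 CPM in LF (median 2.71) and between 59.3 and 738 CPM in HFLF (median 114). Every HFLF library was above every LF library, and HFLF library 2 was the highest by far. The difference was 78.6-fold, a log2 fold change of 6.30 ± 0.86 (SE, n = 6 each; edgeR adjusted p = 0.0178). Without HFLF library 2 it was 5.31, with an adjusted p of 0.00818. In HF, Mmp12 lay between 106 and 1978 CPM, so that the HFLF and HF ranges overlapped, and the difference of -1.70 ± 0.67 between HFLF and HF did not pass (adjusted p = 0.0723).

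HFLF library 2 was also the highest of its group for the next genes. Atp6v0d2, a subunit of the vacuolar proton pump of phagocytes, lay between 0.996 and 1.59 CPM in LF and between 7.76 and 77.4 CPM in HFLF. It rose by 4.27 ± 0.77 on the log2 scale (adjusted p = 0.031), with the 2 groups apart and HFLF library 2 at the top. Gpnmb, a glycoprotein of lipid-laden macrophages, lay between 12.5 and 28.3 CPM in LF and between 87.9 and 729 CPM in HFLF, a rise of 3.60 ± 0.73 (adjusted p = 0.0385). Itgax, the integrin CD11c, lay between 4.35 and 9.09 CPM in LF and between 16.4 and 161 CPM in HFLF and rose by 3.11 ± 0.65 (adjusted p = 0.0414). Both genes had their highest value in HFLF library 2 and no overlap between the groups. Rgs1, a regulator of chemokine receptor signalling in leukocytes, had a median of 0.469 CPM in LF and 5.55 CPM in HFLF and rose by 3.81 ± 0.82. Vsig8, an immunoglobulin-domain membrane protein, had medians of 0.344 and 3.93 CPM and rose by 3.58 ± 0.75. Gdf3, a ligand of the TGF-beta family made by adipose macrophages, was near its detection limit in LF (0 to 0.306 CPM) and lay between 0.571 and 2.89 CPM in HFLF, a rise of 3.52 ± 0.72. Dock8, a guanine nucleotide exchange factor of leukocytes, was at 60.1 to 122 CPM in HFLF and at 9.71 to 22.8 CPM in 5 LF libraries, but at 65.3 CPM in LF library 5; it rose by 1.84 ± 0.35 (adjusted p = 0.0365). Without LF library 5 its adjusted p was 0.000167.

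Trem2, the lipid receptor that defines these macrophages, lay between 2.83 and 5.93 CPM in LF and between 14.8 and 116 CPM in HFLF. The groups did not overlap, and the log2 fold change was 2.94 ± 0.65, yet the adjusted p of 0.0515 missed the threshold. Spp1 (osteopontin) and Cd9 (a tetraspanin) belong to the same programme and overlapped between the groups, at 0.37 ± 1.02 (adjusted p = 0.876) and 0.23 ± 0.38 (adjusted p = 0.775). The LF values of Spp1 were split: LF libraries 4 and 5, which had the highest ductal epithelium sums, were at 13.6 and 18.2 CPM and the other 4 at 0.203 to 0.666 CPM, against 1.67 to 15.4 CPM in HFLF. With the ductal epithelium sum as a covariate its log2 fold change was 3.22 (adjusted p = 0.167), and without the 6 libraries that stood apart it was 4.96 (adjusted p = 0.185). Neither passed, and what set Spp1 apart in LF libraries 4 and 5 was not tested. Adgre1, the F4/80 antigen of macrophages in general, lay between 22 and 41.5 CPM in LF and between 43.6 and 128 CPM in HFLF, without overlap; its log2 fold change of 0.96 ± 0.44 did not pass (adjusted p = 0.263).

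**Figure D3:**
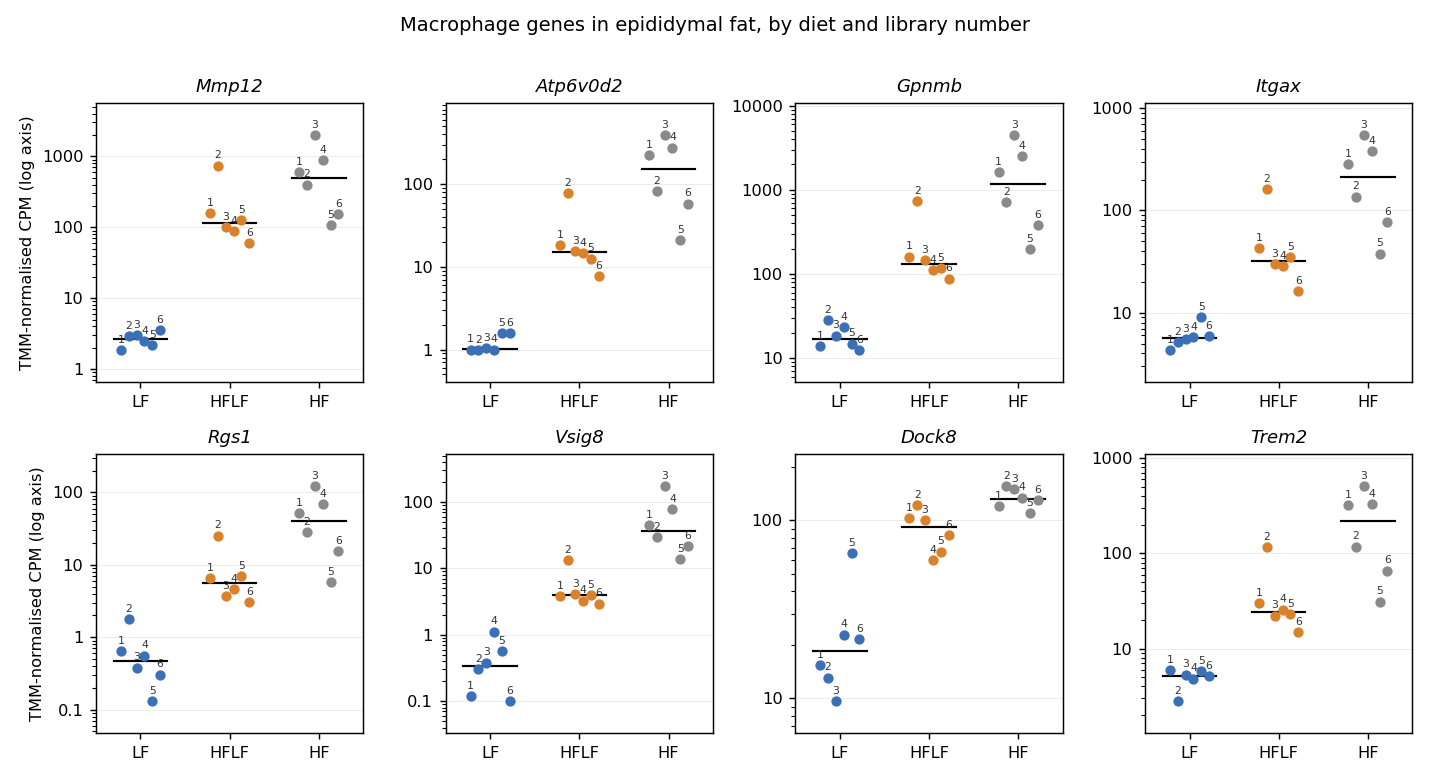
Points are single libraries, numbered within each diet, on a log axis of TMM-normalised CPM; bars mark medians of 6. The HFLF libraries lie above the LF libraries for each gene except Dock8, where LF library 5 reaches 65.3 CPM, and HFLF library 2 is the highest HFLF point in all 8 panels.

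Of 25 lipid-associated macrophage genes, 4 rose (Mmp12, Atp6v0d2, Gpnmb and Itgax), none fell and 21 did not pass; DESeq2 called 8 and limma voom 4, 12 were higher at an unadjusted p under 0.05, and 10 did not overlap between the groups. The median log2 fold change of the 25 was 0.53, against -0.02 for all genes, and 0.42 without HFLF library 2. Between HF and LF, 20 of the 25 were higher and the median was 1.56. Of all genes, 8.98% were higher in HFLF than in LF at an unadjusted p under 0.05 in edgeR, and 1.9% were higher without overlap. DESeq2 called 2.26% of its genes higher and limma voom 1.97%. Between HF and LF, edgeR called 20.6% of all genes higher. Of 22 general macrophage markers, 1 rose (Itgax again, which both lists hold), 6 were higher at an unadjusted p under 0.05 and the median was 0.45; their summed level was 1262 to 2269 CPM in LF, 1876 to 3823 CPM in HFLF and 2500 to 9162 CPM in HF. In bulk tissue, more macrophages and more RNA of these genes per macrophage cannot be told apart. The highest adjusted p over the 12 fits without 1 library was 0.0831 for Mmp12, 0.092 for Atp6v0d2, 0.101 for Gpnmb, 0.112 for Itgax and 0.119 for Rgs1, so each of these calls was lost without at least 1 library.

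RefSeq promoter windows of 2 of these genes hold an AP-1 type motif, TGANTCA, read on both strands. These 2, Mmp12 and Itgax, were picked from the 4 higher genes with a match, which also include Dnmt3aos and Ksr1. Rgs1, Gpnmb and Vsig8 rose more than Itgax and were not among the called genes with a match. Shown are the 150 bases before the RefSeq start of each gene on GRCm38.p6, with the motif in capitals. Both are written 5′ to 3′ in the direction of transcription. The Mmp12 window is chr9:7347224-7347373 on the plus strand, before the second of 2 RefSeq starts. It lies inside the gene, which spans 7344381 to 7369499 in GENCODE M21. The 150 bases before the first start at 7344397 held no match. The Itgax window is chr7:128129400-128129549 on the plus strand.
Mmp12: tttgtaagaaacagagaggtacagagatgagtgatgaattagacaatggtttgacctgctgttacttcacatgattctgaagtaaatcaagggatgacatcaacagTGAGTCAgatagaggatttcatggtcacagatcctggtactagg
Itgax: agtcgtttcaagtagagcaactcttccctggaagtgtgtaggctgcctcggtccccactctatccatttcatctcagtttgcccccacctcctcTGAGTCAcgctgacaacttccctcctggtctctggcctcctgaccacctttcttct
The motif began 44 bases before the Mmp12 start and 56 bases before the Itgax start. It was found in 4 of the 43 higher genes that had a RefSeq window (9.3%), in 2 of 30 lower genes (6.67%) and in 711 of 12010 genes of the eWAT table (5.92%), counting the 250 bases before each start, and in 6.75% of all 32851 RefSeq windows. The counts are gene totals and do not show which start was used.

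The lysosomal, antigen presentation and chemokine lists held 1 call between them. Of 35 lysosomal genes, 1 rose (Atp6v0d2) and 34 did not pass; 33 had a log2 fold change above 0, 11 were higher at an unadjusted p under 0.05, DESeq2 called 3 and limma voom 4, and the median was 0.29. Ctss, the cathepsin that trims the invariant chain in antigen-presenting cells, did not overlap between the groups, but its log2 fold change of 1.90 ± 0.46 did not pass (adjusted p = 0.0669). All 21 genes of MHC class II and antigen presentation had a log2 fold change above 0, with a median of 0.26; none passed in edgeR, 8 were higher at an unadjusted p under 0.05, and DESeq2 and limma voom each called 3. Of 40 chemokine and cytokine genes none passed in edgeR, and the median was 0.27. At an unadjusted p under 0.05, 11 were higher and 4 lower, against 8.98% and 9.17% of all genes. DESeq2 called 2 higher and 1 lower, and limma voom 1 higher. The median shift of the chemokine list from the LF mean ran from -0.01 to 0.87 over the 6 HFLF libraries, with HFLF library 2 at the top.

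Among interferon-induced genes the called difference was small and its spread narrow. Ifih1, the cytosolic RNA sensor MDA5, lay between 19.1 and 24.8 CPM in LF and between 27.4 and 31.5 CPM in HFLF. The groups did not overlap, and it rose by 0.37 ± 0.08 on the log2 scale (adjusted p = 0.0385). HF lay between 19.7 and 26.2 CPM; the difference of HF from LF was 0.05 ± 0.08 (adjusted p = 0.675), and HFLF was above HF by 0.33 ± 0.08 (adjusted p = 0.0058). Of the 36 interferon-induced genes, Ifih1 alone passed in edgeR, DESeq2 called 1 and limma voom 2, 13 were higher and none lower at an unadjusted p under 0.05, 31 had a log2 fold change above 0, and the median was 0.30. LF library 3 was the exception among the controls: the median shift of the list there was 0.50, against -0.30 to 0.06 in the other 5 LF libraries and 0.22 to 0.44 in HFLF.

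Several called genes outside that list also have a place in antiviral defence. Ddx60, a helicase that assists RNA sensing, lay between 2.53 and 3.93 CPM in LF and between 5.24 and 8.68 CPM in HFLF, without overlap, and rose by 1.03 ± 0.18 (adjusted p = 0.031). Dtx3l, a ubiquitin ligase, lay between 31.7 and 42.1 CPM in LF and between 49.5 and 62.8 CPM in HFLF and rose by 0.54 ± 0.09 (adjusted p = 0.031). Its partner Parp9 rose by 0.39 ± 0.08; the 2 genes overlap on opposite strands, and without a stated strand setting their reads cannot be told apart at the overlap. The next 4 and Parp9 were picked after their values were seen. Trim14, an adaptor of antiviral signalling that overlaps Nans on the other strand, rose by 0.68 ± 0.14. Parp4, the vault ADP-ribosyltransferase, is given beside them with no antiviral role claimed and rose by 0.37 ± 0.08. Slfn8 (0.88 ± 0.16) and Trim30d (0.52 ± 0.11) also rose, but both belong to clusters of near-identical genes, so their counts are uncertain. In edgeR, Ddx60 (0.87), Slfn8 (1.09), Trim30d (0.42), Parp9 (0.35) and Parp4 (0.22) were also called higher in HF than in LF, as were 20.6% of all genes. None of them passed between HFLF and HF (adjusted p from 0.176 to 0.752). Dtx3l and Trim14 did not pass between HF and LF (adjusted p 0.0544 and 0.135). Both were higher in HFLF than in HF (adjusted p 0.0111 and 0.0379). The highest adjusted p of the 8 genes over the fits without 1 library lay between 0.092 (Ddx60) and 0.13 (Parp4).

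Promoters of 3 of these genes are shown because they hold the core of an interferon-stimulated response element, which is GAAA, any 2 bases and GAAA again, read on both strands; that of Ifih1 is shown for contrast, with no match in the 250 bases before its start. Each is the 150 bases before the RefSeq start on GRCm38.p6, 5′ to 3′ in the direction of transcription, with the motif in capitals. The windows are chr8:61927937-61928086 (plus strand) for Ddx60, chr14:56575469-56575618 (plus strand) for Parp4, chr11:83020811-83020960 (minus strand) for Slfn8 and chr2:62646256-62646405 (minus strand) for Ifih1.
Ddx60: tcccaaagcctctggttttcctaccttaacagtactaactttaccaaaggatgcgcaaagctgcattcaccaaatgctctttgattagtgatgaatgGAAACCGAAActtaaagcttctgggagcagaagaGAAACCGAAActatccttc
Parp4: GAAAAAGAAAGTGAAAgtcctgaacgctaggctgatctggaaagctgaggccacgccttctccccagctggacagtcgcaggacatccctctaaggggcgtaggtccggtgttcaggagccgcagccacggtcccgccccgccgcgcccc
Slfn8: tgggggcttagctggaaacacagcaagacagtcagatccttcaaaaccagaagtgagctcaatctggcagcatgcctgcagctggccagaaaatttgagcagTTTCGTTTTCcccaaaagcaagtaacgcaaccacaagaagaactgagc
Ifih1: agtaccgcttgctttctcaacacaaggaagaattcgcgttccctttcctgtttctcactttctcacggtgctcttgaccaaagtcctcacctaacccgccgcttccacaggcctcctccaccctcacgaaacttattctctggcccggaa
The motif occurred 2 times before Ddx60, beginning 53 and 19 bases from the start, 2 overlapping times before Parp4 and 1 time on the opposite strand before Slfn8, 48 bases from the start shown; Slfn8 has another RefSeq start, from which the same match lies 136 bases away. It was present in 7 of the 43 higher genes with a RefSeq window (16.28%), in 0 of 30 lower genes and in 403 of 12010 genes of the eWAT table (3.36%), and in 2.98% of all 32851 RefSeq windows; the 7 were Crybg1, Ddx60, Gzma, Parp4, Slfn8, Trim12c and Trim30d, all of which were chosen by the contrast.

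Of the lymphocyte genes, 1 passed the test. Gzma, a granule protease of cytotoxic and natural killer cells, lay between 0.23 and 0.794 CPM in LF and between 0.719 and 1.85 CPM in HFLF; it rose by 1.48 ± 0.30 (adjusted p = 0.0385), and only HFLF library 5 lay within the LF range. It was the single call among 28 T and NK cell genes, of which DESeq2 called 3 and limma voom 1, and 12 were higher at an unadjusted p under 0.05; their median was 0.74, and their summed level was 42.4 to 65.4 CPM in LF and 47.2 to 107 CPM in HFLF. No gene of 20 B and plasma cell genes passed in edgeR, while 7 were higher at an unadjusted p under 0.05, DESeq2 called 2 and limma voom 1, and the median was 1.35. Ighm, the heavy chain of IgM, lay between 175 and 603 CPM in LF and between 704 and 1336 CPM in HFLF. It did not overlap, with a log2 fold change of 1.10 ± 0.37 that did not pass (adjusted p = 0.146). Cd22, a B cell inhibitory receptor, lay between 0.383 and 3.17 CPM in LF and between 2.26 and 21.4 CPM in HFLF, at 2.28 ± 0.65 (adjusted p = 0.0997). HFLF libraries 1 and 2 stood highest in both genes.

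The cell cycle list held no call, although a kinetochore gene outside it did pass. Spc25, a kinetochore protein, lay between 0.779 and 1.85 CPM in LF and between 1.94 and 2.97 CPM in HFLF, without overlap, and rose by 1.09 ± 0.24 (adjusted p = 0.045). In HF it lay between 6.04 and 13.9 CPM, and HFLF was below HF by 2.11 ± 0.24 on the log2 scale (adjusted p = 0.000238). Of 31 cell cycle genes none passed in edgeR; 10 were higher at an unadjusted p under 0.05, DESeq2 called 3 and limma voom 2, and the median was 0.33 (0.63 without LF library 4). Gadd45a, which is induced by growth arrest and DNA damage, had a median of 12.6 CPM in LF and 24.9 CPM in HFLF and rose by 1.01 ± 0.21 (adjusted p = 0.0414), with LF library 5 inside the HFLF range.

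Among genes of lipid synthesis, Fads1 fell. Fads1, the delta-5 fatty acid desaturase, lay between 121 and 202 CPM in LF and between 67.8 and 125 CPM in HFLF; it fell by 0.93 ± 0.18 on the log2 scale (adjusted p = 0.0365), and only HFLF library 4 reached into the LF range. It was the single call among 26 lipogenic genes, of which 9 were lower and none higher at an unadjusted p under 0.05, with a median of -0.31; 22 of the 26 were below 0, and DESeq2 called 5 and limma voom 4 lower. Between HF and LF, 19 of the 26 were lower and 1 higher (20.2% and 20.6% of all genes), and the median was -0.996. Aacs, acetoacetyl-CoA synthetase, lay between 243 and 519 CPM in LF and between 160 and 325 CPM in HFLF, at -0.84 ± 0.24, and did not pass (adjusted p = 0.1). Acly, ATP citrate lyase, ranged from 562 to 3378 CPM within LF and from 431 to 2115 CPM within HFLF, so that its difference of -0.31 ± 0.42 was smaller than the spread (adjusted p = 0.73).

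Further falls were seen in single metabolic and mitochondrial genes. Tst, a mitochondrial sulfurtransferase of adipocytes, lay between 30.2 and 102 CPM in LF and between 16 and 42.1 CPM in HFLF and fell by 1.40 ± 0.31 (adjusted p = 0.0481). HF was lower still, at 7.28 to 12.5 CPM. Chchd10, a protein of the mitochondrial intermembrane space, lay between 67.5 and 141 CPM in LF and between 21 and 54.5 CPM in HFLF, without overlap, and fell by 1.42 ± 0.28 (adjusted p = 0.0382); it overlaps Mmp11 on the other strand, so its count is uncertain. Sh2b2, an adaptor of the insulin receptor, had a median of 121 CPM in LF and 59.0 CPM in HFLF and fell by 0.92 ± 0.17 (adjusted p = 0.031). Coq8b, a kinase of coenzyme Q synthesis, fell by 0.62 ± 0.12, and Hpgd, which inactivates prostaglandins, by 0.69 ± 0.14; both were picked after their values were seen. None of 77 nuclear genes of the respiratory chain passed in edgeR, DESeq2 or limma voom, and the median was -0.15. At an unadjusted p under 0.05 in edgeR, 9 were lower (11.7%), near the 9.17% of all genes. Between HF and LF, 65 of the 77 were lower, against 20.2% of all genes. Ppargc1a, the coactivator of mitochondrial biogenesis, was at -0.52 ± 0.35 and did not pass (adjusted p = 0.431).

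The hormones of the fat cell did not pass. Leptin (Lep), which tracks fat mass, lay between 321 and 2153 CPM in LF and between 532 and 1897 CPM in HFLF; the difference was 0.49 ± 0.41 (adjusted p = 0.535), while HF lay at 2449 to 4640 CPM. Adiponectin (Adipoq) was at 0.12 ± 0.27 (adjusted p = 0.848). Adipsin (Cfd), the serine protease that obesity is known to lower, had a median of 11153 CPM in LF and 4696 CPM in HFLF, at -1.10 ± 0.49 (adjusted p = 0.246); HF lay below every library of both groups, at 149 to 1515 CPM. Markers of fat pad expansion separated the LF libraries among themselves. Sfrp5, a secreted Wnt inhibitor, was at 17.3 to 34.6 CPM in LF libraries 1 to 4 and at 398 and 168 CPM in LF libraries 5 and 6, against 96.9 to 443 CPM in HFLF; its difference was 1.34 ± 0.70 (adjusted p = 0.316). Mest, an imprinted hydrolase of expanding fat that overlaps Copg2 on the other strand, was at 312 and 138 CPM in those 2 libraries, at most 82.6 CPM in the other 4 and at 116 to 363 CPM in HFLF, at 0.88 ± 0.45 (adjusted p = 0.304; 1.49 and 0.0472 without LF library 5). Fgf13, an intracellular channel regulator, lay at 4.06 to 43.3 CPM in LF and at 17.1 to 107 CPM in HFLF, at 2.31 ± 0.52 (adjusted p = 0.0582; 0.0103 without LF library 5). Npr3, the clearance receptor of natriuretic peptides, was at 0.65 ± 0.31 (adjusted p = 0.282). Libraries 5 and 6 of LF were thus the 2 highest of their group for Lep, Sfrp5, Mest, Fgf13 and Npr3.

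Of the stress, glucocorticoid and clock genes, Sesn2, Fkbp5 and Nfil3 fell. Sesn2, a stress-induced inhibitor of mTORC1, lay between 67.3 and 154 CPM in LF and between 29.9 and 47.6 CPM in HFLF; it did not overlap and fell by 1.23 ± 0.20 (adjusted p = 0.031). Fkbp5, the glucocorticoid-induced chaperone of the glucocorticoid receptor, lay between 109 and 323 CPM in LF and between 65.2 and 137 CPM in HFLF. It fell by 1.23 ± 0.26 (adjusted p = 0.045), LF library 6 being the low one of its group. Nfil3, a clock-linked repressor, lay between 8.96 and 15 CPM in LF and between 4.80 and 6.04 CPM in HFLF, without overlap. It fell by 1.05 ± 0.19 (adjusted p = 0.031), and HFLF was also below HF, by 1.31 ± 0.19 (adjusted p = 0.000719), whereas HF and LF differed by 0.26 ± 0.19 (adjusted p = 0.288). Btg1, an antiproliferative gene picked after its values were seen, fell by 0.73 ± 0.16 without overlap. The highest adjusted p over the fits without 1 library was 0.092 for Sesn2 and Nfil3, 0.118 for Fkbp5 and 0.127 for Btg1.

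Of 21 glucocorticoid-responsive genes, 1 fell (Fkbp5) and 10 were lower at an unadjusted p under 0.05; none was higher, DESeq2 and limma voom each called 3 lower, and the median was -0.49. Errfi1, an inhibitor of EGF receptor signalling, ranged from 51.6 to 287 CPM in LF and only from 51.9 to 73.0 CPM in HFLF, at -1.27 ± 0.35 (adjusted p = 0.0888). Of 33 immediate early and heat shock genes none passed in edgeR, 16 were lower and 1 higher at an unadjusted p under 0.05, DESeq2 called 9 lower and limma voom 6, and the median was -0.35. Hspa1b, an inducible HSP70, lay between 10 and 25.8 CPM in LF and between 6.04 and 8.76 CPM in HFLF, without overlap, at -1.14 ± 0.27 (adjusted p = 0.0645); its near-identical neighbour Hspa1a makes its own count uncertain. Of 29 genes of the unfolded protein response and the integrated stress response, 1 fell (Sesn2), with 8 lower and 2 higher at an unadjusted p under 0.05 and a median of -0.07; DESeq2 called 5 lower, and limma voom 8 lower and 1 higher. Of 24 senescence and p53 target genes, 1 fell (Sesn2 again), 5 were higher and 2 lower at an unadjusted p under 0.05, DESeq2 called 2 lower, limma voom 2 lower and 1 higher, and the median was 0.08. LF libraries 1 and 2 stood above the other LF libraries in the glucocorticoid and the immediate early lists, with median shifts of 0.40 and 0.57 for the glucocorticoid list against -0.26 to -0.11. HFLF lay at -0.70 to 0.01.

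**Figure D4:**
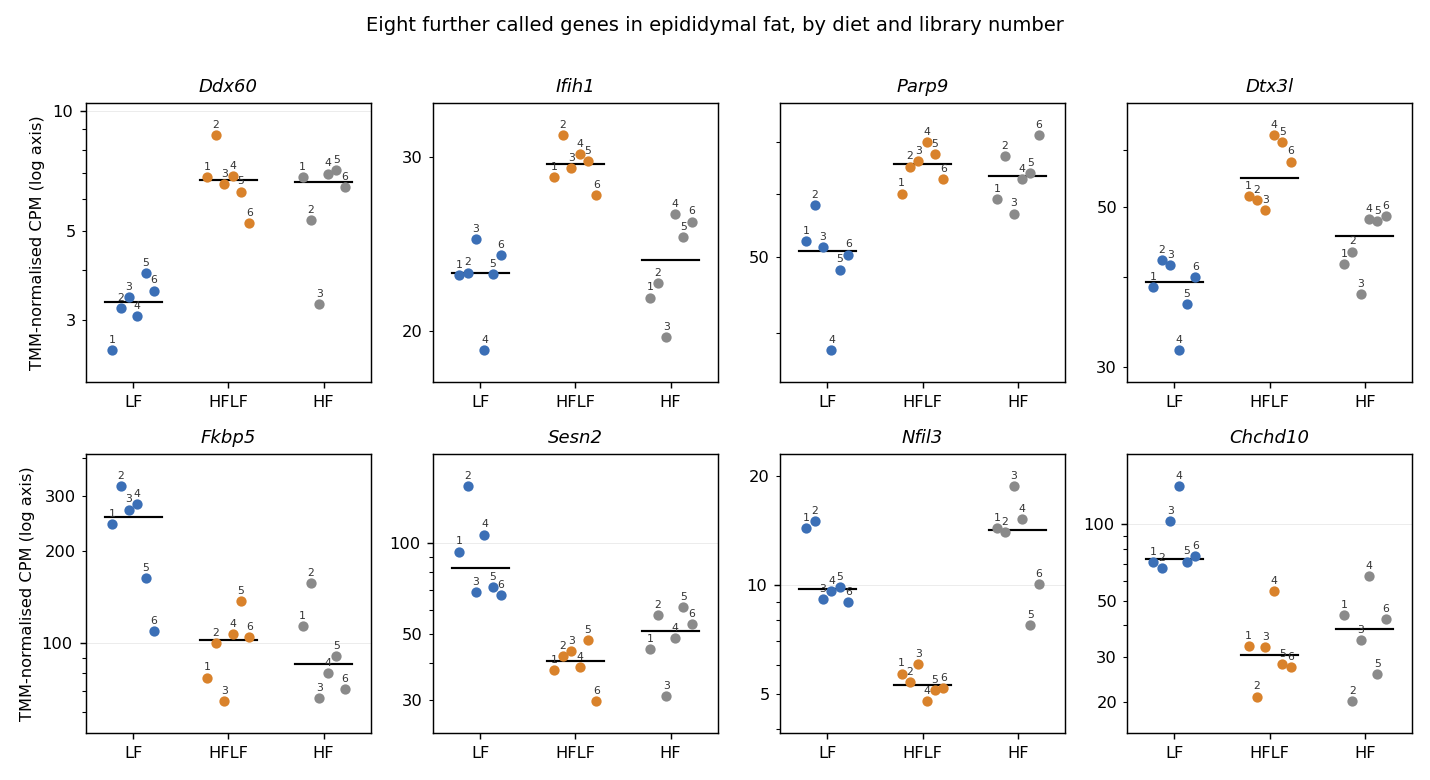
Points are single libraries, numbered within each diet, on a log axis of TMM-normalised CPM; bars mark medians of 6. Ddx60, Ifih1, Parp9 and Dtx3l are higher in every HFLF library than in any LF library, Sesn2, Nfil3 and Chchd10 are lower in every one, and Fkbp5 overlaps.

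Among the remaining calls the largest falls were in genes of varied function. Tmem252, a membrane protein, fell by 1.82 ± 0.37 (adjusted p = 0.0394), with 109 CPM in LF library 3, 14 to 52.1 CPM in the other LF libraries and 8.84 to 14.8 CPM in HFLF. Dok7, an activator of the kinase MuSK, lay between 11 and 19.6 CPM in LF, between 1.94 and 8.44 CPM in HFLF and between 0.607 and 1.96 CPM in HF. It fell by 1.55 ± 0.33 (adjusted p = 0.0437), and HFLF was above HF by 2.10 ± 0.34 (adjusted p = 0.00106). Npy1r, a neuropeptide Y receptor that was picked after its values were seen, fell by 1.30 ± 0.26 without overlap. Tent5b, Gfod2, Rhou and Spry1 fell by 1.00 ± 0.22, 0.93 ± 0.19, 0.83 ± 0.16 and 0.50 ± 0.09; Spry1 restrains receptor tyrosine kinase signalling, and Rhou overlaps another gene model on the same strand.

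Further called rises were in genes of varied function. Pde7a, a cyclic AMP phosphodiesterase, lay between 22.5 and 39.1 CPM in LF and between 46.8 and 74.1 CPM in HFLF, without overlap, and rose by 0.99 ± 0.16 (adjusted p = 0.031). Tmeff2, a transmembrane protein with follistatin-like domains, lay between 7.12 and 13.2 CPM in LF and between 15.5 and 26.9 CPM in HFLF and rose by 0.90 ± 0.16 (adjusted p = 0.031). Stambpl1, a deubiquitinase, rose by 1.14 ± 0.23, with HFLF at 12.4 to 24.1 CPM between LF at 4.52 to 13.5 CPM and HF at 33.8 to 45.0 CPM. Wdr86 (1.35 ± 0.24) and Klf8, a Krüppel-like factor (1.56 ± 0.31), were picked after their values were seen; both rose without overlap at levels of at most 5.26 CPM.

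Of the matrix and muscle lists, Mmp12 alone passed in edgeR. Of 28 collagen chains none passed in edgeR, and the median was 0.12. At an unadjusted p under 0.05, 3 were higher and 3 lower, against 8.98% and 9.17% of all genes. DESeq2 called 1 higher and limma voom 2 higher. Between HF and LF, 17 were higher and 4 lower, against 20.6% and 20.2% of all genes. Col6a3, a chain of the pericellular collagen of adipocytes, lay between 112 and 178 CPM in LF and between 134 and 202 CPM in HFLF, at 0.25 ± 0.16 (adjusted p = 0.413), and HF lay at 337 to 632 CPM. Of 14 smooth muscle and pericyte genes none passed in edgeR or limma voom, DESeq2 called 3 lower, and 7 were lower and 2 higher at an unadjusted p under 0.05, with a median of -0.57. Of 7 skeletal muscle genes none passed in edgeR, DESeq2 and limma voom each called 1 lower, and 1 was lower at an unadjusted p under 0.05. Cnn1 (calponin) and Myh11 (smooth muscle myosin) had log2 fold changes of -5.29 ± 1.25 (adjusted p = 0.0645) and -2.47 ± 0.70 (adjusted p = 0.0969). LF library 3 held 638 CPM of Cnn1 and 1589 CPM of Myh11, against at most 31.3 and 196 CPM in any other of the 12; without that library the differences were -2.47 and -0.95, and without LF library 5 Cnn1 passed (adjusted p = 0.032). Of 20 genes of microRNA processing none passed in edgeR or DESeq2 (3 higher and 1 lower at an unadjusted p under 0.05, limma voom 1 in each direction), and the median was 0.02. None of 30 let-7 targets passed in edgeR, DESeq2 or limma voom, 2 were lower at an unadjusted p under 0.05, and the median was -0.06.

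**Figure D5:**
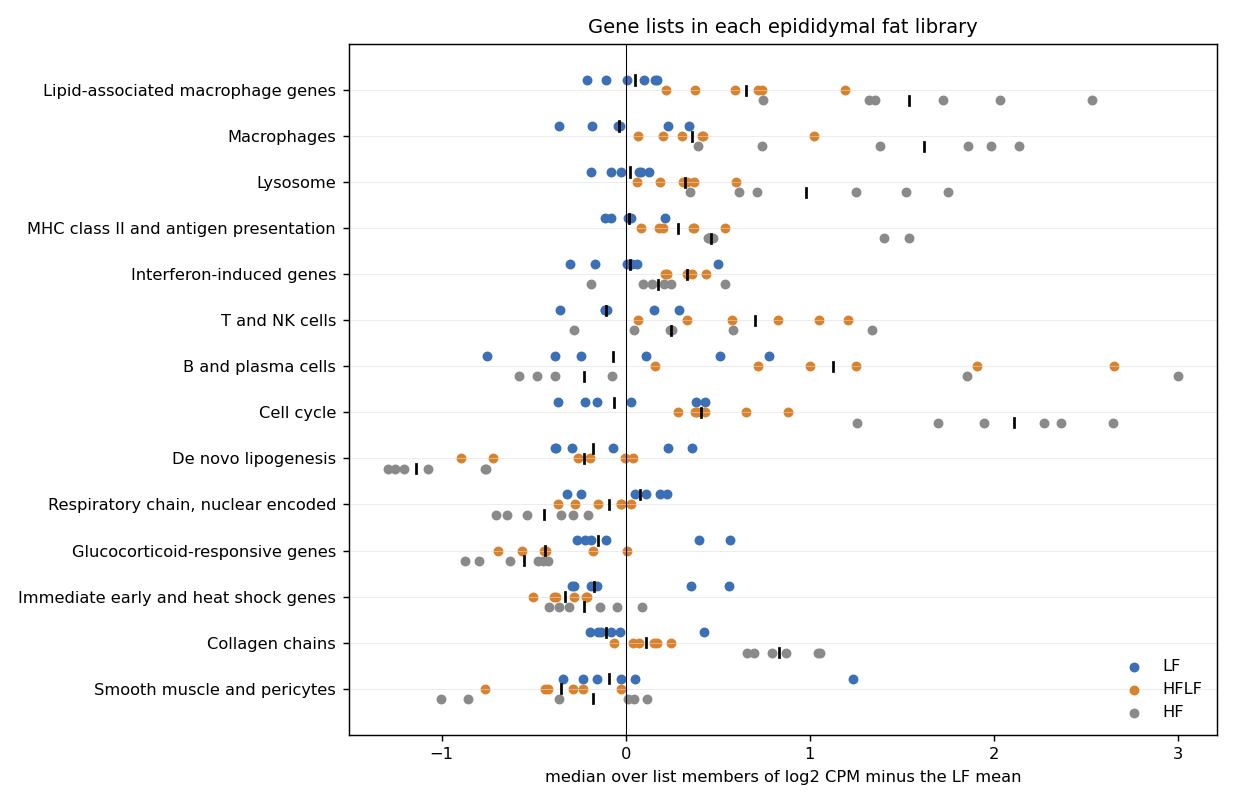
Each point is 1 library: the median over the members of a gene list of log2 CPM minus the LF mean (horizontal axis), for LF, HFLF and HF; ticks mark medians of 6. In HFLF the lipid-associated macrophage list lies at 0.22 to 1.19, above LF at -0.21 to 0.17, while the lipogenesis, respiratory chain, collagen and smooth muscle lists overlap between the 2 groups.

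Each HFLF library was also set against the 6 LF libraries. The share of genes that lay above all 6 LF libraries was 13.3% to 18.9% of all genes, with HFLF library 2 highest. The share below all 6 was 11.3% to 17.4%, again with HFLF library 2 highest. Taken the other way, single LF libraries lay above all 6 HFLF libraries for 14.6% to 30.2% of genes. They lay below all 6 for 15.4% to 30.1%, with LF library 4 highest in both. Shares of about the size seen in HFLF arise without any difference between the groups, so they are not read as a distance from LF. For the lipid-associated macrophage list the median shift was 0.74, 1.19, 0.72, 0.22, 0.59 and 0.38 in HFLF libraries 1 to 6. For B and plasma cell genes it was 2.65, 1.91, 0.16, 1.00, 1.25 and 0.72. HFLF library 4 had the lowest shift of the lipid-associated macrophage list, though not of the general macrophage list (lowest in HFLF library 6, at 0.07), and the highest ductal epithelium sum of its group, and HFLF library 2 had the lowest adipocyte marker sum; the part of these mixtures in the shifts was not tested.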

How the data were processed

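Reads of bulk eWAT RNA were aligned with STAR to GRCm38.p6, per the submitters' processing notes. For the counting tool, annotation release and strand setting: not given in the sources used here. The deposited eWAT table holds raw counts for 16690 genes, whole numbers as the authors counted them, already filtered on CPM per the name of the deposited file. GENCODE M21 gave symbols and positions: 16166 identifiers matched with their version and 16674 with any version. The deposited RPKM values were not used, because they imply gene lengths that differ between libraries.

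All 18 eWAT libraries in 3 diets were fitted with edgeR 4.0.16 (R 4.3.3): TMM, robust glmQLFit, glmQLFTest, Benjamini-Hochberg over all genes, called at 0.05, with no further filter on low counts. SE is the log2 fold change divided by the square root of F. The script was tested on simulated data. DESeq2 1.42.0 and limma 3.58.1 (voom with quality weights) were alternatives, with other scalings, filters, covariates and left-out libraries. The lowest chi-square per degree of freedom between libraries of a group was 6.53, so none was a copy.

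Members and gene lists were chosen with earlier results of these data known. Named genes were the 12 largest changes per direction at a mean log2 CPM of at least 2, the 8 per direction that held best without single libraries, up to 4 members of each list by p, and a fixed set. Promoters came from RefSeq windows, of which 73 of the 94 called genes had one.
Results on a few items are not reported here.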

Additional observations from a re-analysis of the deposited data

Results flagged for a closer look

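Of 124 sets of 6 values (62 described genes in LF and in HFLF), 20 had a highest or lowest library whose gap to its neighbour as a share of the whole range was over Dixon's 95% critical value. Chance flags about 5% of sets only where the values are normally distributed and the sets independent. The CPM were not log-transformed and 11 of the 20 flags fell on HFLF library 2, so the 20 cannot be weighed against that 5%. In HFLF, library 2 stood highest, apart from the other 5, for Mmp12 (738 CPM, others 59.3 to 158), Gpnmb (729, others 87.9 to 160), Itgax (161, others 16.4 to 43.2), Adgre1 (128, others 43.6 to 58.6), Cd9 (124, others 49.3 to 63.3) and Trem2 (116, others 14.8 to 30). The same library stood highest for Atp6v0d2 (77.4 CPM), Rgs1 (25.4), Trim30d (14.8), Slfn8 (13.3) and Vsig8 (13.2). HFLF library 4 was highest for Chchd10 (54.5 CPM, others 21 to 33).

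In LF, library 3 stood highest for Myh11 (1589 CPM) and Cnn1 (638 CPM). LF library 5 stood highest for Mest (312 CPM, others 36.8 to 138), Dock8 (65.3 CPM, others 9.71 to 22.8) and Itgax (9.09 CPM, others 4.35 to 5.88). LF library 2 was highest for Rgs1 (1.76 CPM) and lowest for Trem2 (2.83 CPM), and LF library 4 was lowest for Ifih1 (19.1 CPM, others 22.8 to 24.8). What set these libraries apart was not tested.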

How the results depend on the processing

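The number of genes called between HFLF and LF was within 1.5 times of 94 under 2 other scalings, 2 filters and without robust estimation (89 to 135). It was 704 with DESeq2, 644 with limma voom and 50 in a fit of the 2 groups alone. It was 39 with the epididymal covariate and 6 without the 6 libraries that stood apart. It was 0 with the ductal covariate and 42 with the sperm covariate, both added after the data were seen. Of the 50, 39, 6 and 42 genes, 31, 36, 3 and 42 were among the 94. Leaving out 1 LF or HFLF library gave 0 to 341, and 1 HF library 37 to 131 (37, 56 and 38 without HF library 1, 4 and 6). No pairing is stated by the labels, and same-numbered HFLF and LF libraries correlated at -0.21 to 0.57, 2 of 6 best with their own number; with the replicate block 15 genes were called. With the epididymal covariate, 19 genes were called between HF and LF and 5 between HFLF and HF; without the 6 libraries 1390 were called between HFLF and HF. Mfge8, a member of the epididymal list, lay at 306 to 700 CPM in LF, 543 to 971 in HFLF and 805 to 1814 in HF. The sum over that list was 542 to 930, 648 to 1011 and 842 to 1865 CPM, so Mfge8 made up a large part of it. In edgeR Mfge8 was higher in HF than in LF by 1.39 ± 0.22 (adjusted p = 0.000171), so this covariate is not separate from diet. The cause of the changed numbers of calls was not tested. Of 1915 values of the 62 described genes under other settings, 637 were of a called gene that no longer passed. A further 31 were of an uncalled gene that then passed. None of the 41 described called genes reversed in any of 31 settings. Among 21 others, 3 reversed: Cd9 (-0.24 with the epididymal covariate, -0.039 without HFLF library 2, in a range of -0.039 to 0.39 over the fits without 1 library), Adipoq (-0.039 without the 6 libraries, -0.034 with the ductal covariate) and Acly (0.047 without LF library 1, in a range of -0.52 to 0.047). Of 589 list medians 13 moved by over 1 SD between libraries, in 7 of 19 lists. Genes at a few CPM in HFLF library 1 (8.94 M reads) rest on few reads.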

Other observations

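The following 4 gene lists held no called gene between HFLF and LF in edgeR. Thermogenic genes had a median of -0.39 over 19 members (3 lower and 2 higher at an unadjusted p under 0.05, none called by DESeq2 or limma voom). The median was -0.21 over 27 genes of pyruvate entry and the TCA cycle. At an unadjusted p under 0.05, 6 were lower and 0 higher, and DESeq2 and limma voom each called 1 lower gene. Between HF and LF, 21 of the 27 were lower, against 20.2% of all genes. Branched-chain amino acid breakdown had a median of -0.17 over 23 genes, with 3 lower and 2 higher at an unadjusted p under 0.05, none called by DESeq2 and 1 higher by limma voom. The 78 cytosolic ribosomal proteins had a median of 0.01, with 1 lower at an unadjusted p under 0.05 and none called by DESeq2 or limma voom.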
